A study of Mus musculus with 2 samples.

Results

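Among Tomato+ epithelial cells of the mouse small intestine, 715 of 8761 kept cell barcodes were in division while carrying little Olfm4, a transcript of crypt stem cells. They were chosen by sequencing counts alone, Mki67 to Cdk1 and Olfm4 being the measured values used. A barcode was a member when it held at least 500 genes, at least 1000 unique molecular identifiers (UMIs, each marking 1 captured transcript molecule) and at most 25% mitochondrial UMIs, carried at least 10 UMIs summed over Mki67, Top2a, Ube2c, Birc5 and Cdk1, and had Olfm4 under 300 counts per 1000000 UMIs (CPM). The 2 libraries were WT, from Neurog3Cre mice with the Rosa26tdtomato reporter, and NFKO, from Neurog3Cre-FoxO1 f/f mice with the same reporter, so that both carried the Cre and the red label. Cre expression followed Neurog3, a gene of endocrine progenitors, and Tomato+ cells are those whose lineage passed through Cre activity. Each library was made by 10x Genomics 3′ scRNA-Seq of sorted cells pooled from the small intestines of 4 to 5 mice that were 4 to 6 weeks old. The mice within a pool were not separated, so each genotype is 1 sample. WT gave 237 members of 3129 kept barcodes and NFKO 478 of 5632.

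The crypt of the small intestine renews the epithelium from Lgr5 and Olfm4 stem cells, whose daughters divide several times while they choose between absorptive and secretory fates. Notch signaling holds cells in the absorptive and stem states through Hes1. A cell that escapes it turns on Atoh1, displays the Notch ligands Dll1 and Dll4 to its neighbors, and becomes a goblet, Paneth, enteroendocrine (EEC) or tuft cell. Goblet cells make the mucin Muc2 and the trefoil peptide Tff3, and usually leave the cell cycle as they mature. The 5 genes of the rule act late in the cycle. Mki67 encodes the Ki-67 coat of mitotic chromosomes, Top2a the topoisomerase that untangles them, Ube2c the ubiquitin-conjugating enzyme of the anaphase-promoting complex, Birc5 the survivin subunit of the chromosomal passenger complex, and Cdk1 the kinase that drives entry into mitosis.

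The promoters of these genes are shown first, because the members were chosen by their transcripts, with those of Mcm5 and Mcm3, 2 genes of the replicative helicase whose transcripts the rule did not use. Each is the 150 bases before the RefSeq transcription start on GRCm38.p6, written 5′ to 3′ in the direction of the gene. Capitals mark, on either strand, CCAAT (read as ATTGG on the other strand), which the factor NF-Y binds, TTTGAA or TTCGAA (the cell cycle homology region, CHR), and TTTCCCGC or TTTGGCGC (sites of the E2F family).
Ube2c: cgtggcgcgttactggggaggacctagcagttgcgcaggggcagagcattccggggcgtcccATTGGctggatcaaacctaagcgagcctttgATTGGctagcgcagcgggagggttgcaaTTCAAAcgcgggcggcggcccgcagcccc
Top2a: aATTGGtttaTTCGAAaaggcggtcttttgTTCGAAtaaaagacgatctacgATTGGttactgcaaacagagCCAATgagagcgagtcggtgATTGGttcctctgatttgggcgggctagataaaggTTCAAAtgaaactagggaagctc
Mki67: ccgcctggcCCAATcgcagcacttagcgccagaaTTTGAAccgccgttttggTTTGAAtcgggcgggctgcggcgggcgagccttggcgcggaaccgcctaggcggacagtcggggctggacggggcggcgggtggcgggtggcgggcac
Cdk1: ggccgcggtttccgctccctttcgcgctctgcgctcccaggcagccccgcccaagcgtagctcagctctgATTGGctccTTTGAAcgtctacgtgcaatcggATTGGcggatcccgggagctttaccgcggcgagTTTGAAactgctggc
Birc5: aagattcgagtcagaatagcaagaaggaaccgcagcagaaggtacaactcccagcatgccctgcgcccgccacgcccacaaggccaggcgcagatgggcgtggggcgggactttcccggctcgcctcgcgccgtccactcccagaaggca
Mcm5: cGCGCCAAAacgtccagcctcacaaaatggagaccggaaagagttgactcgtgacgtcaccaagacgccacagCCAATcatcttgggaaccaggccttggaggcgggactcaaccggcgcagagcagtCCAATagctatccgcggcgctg
Mcm3: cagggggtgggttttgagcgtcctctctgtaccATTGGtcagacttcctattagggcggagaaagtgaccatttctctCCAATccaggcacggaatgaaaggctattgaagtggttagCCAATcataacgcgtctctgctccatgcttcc
These windows lie at chr2:164769779-164769928, plus strand for Ube2c, chr11:99024190-99024339, minus strand for Top2a, chr7:135716380-135716529, minus strand for Mki67, chr10:69352913-69353062, minus strand for Cdk1, chr11:117849087-117849236, plus strand for Birc5, chr8:75109359-75109508, plus strand for Mcm5 and chr1:20820313-20820462, minus strand for Mcm3.

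Among the 5 genes of the rule, 4 held CCAAT and the same 4 held TTTGAA, while Birc5 held none of the letters searched in this window. Over all 32851 promoter windows of the same length, CCAAT was in 24.5%, TTTGAA in 9.07%, TTCGAA in 0.667%, TTTCCCGC in 0.603% and TTTGGCGC in 0.268%. The lists below were counted by gene, with a match in any window of the gene, and so differ in measure from these shares of single windows. Of 59 genes of spindle, kinetochore and anaphase, 53 had a sequence and 33 of them held CCAAT (62.3%). Of 43 genes of DNA replication, 34 had a sequence and 18 of them held CCAAT (52.9%). TTTGAA was in 26.4% of the mitotic genes and 8.82% of the replication genes with a sequence. Either E2F site was in 5.66% and 17.6% of them, beside 0.868% of all single windows. These are matches of letters, with no binding measured.

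Both libraries were checked before any comparison. The kept barcodes of WT held 83968252 UMIs and those of NFKO 120048549. Members were deep, with a median of 37749 UMIs in WT and 35520 in NFKO, against 14164 and 15064 in non-dividing Olfm4-low cells. Their median mitochondrial share was 5.63% and 4.1%. The libraries shared 6 barcodes, of which 1 was a member in either and 0 in both. By Xist and 4 Y-linked genes, 219 of the 237 WT members were typed as male and 1 as female, while 43 of the 478 NFKO members were typed as male and 404 as female, with 20 carrying both kinds of transcript. Genotype, sex and library therefore cannot be told apart in the pooled values, and values for male-typed members are given beside them. All intervals are 95% intervals for counting error only, and with 1 library per group no difference has a replicate check or a test.

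Foxo1, the gene floxed in NFKO mice (ENSMUSG00000044167, chromosome 3, 52268336 to 52353221, plus strand, GRCm38), was examined as a check of the labels. Members held 132 Foxo1 UMIs in WT, or 11.6 CPM, and 213 in NFKO, or 11.2 CPM. The ratio of NFKO over WT was 0.959 (0.768 to 1.20), and 1.22 (0.788 to 1.82) in male-typed members. No loss of the transcript was detectable. A 3′ tag can lie outside the deleted part of a gene, in which case this check says nothing about the deletion, and NFKO below means the library labelled so. Foxo3 (8.20 and 7.54 CPM) and Foxo4 (7.84 and 6.65 CPM) had intervals of the ratio that included 1, and in male-typed members Foxo4 had a ratio of 0.308 from 83 WT and 5 NFKO UMIs.

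The values that chose the members are given as description. The summed UMIs of the 5 genes ran from 10 to 333 in WT with a median of 44, and from 10 to 310 in NFKO with a median of 41. Olfm4 was at 0 in 118 WT and 299 NFKO members, and its highest value was 292 CPM in WT and 299.6 in NFKO. Dividing Olfm4-high cells started at 307 CPM in each library, with medians of 1522 and 1160. Just inside the limit on dividing genes, at 10 to 12 UMIs, lay 36 WT and 62 NFKO members, and just outside it, at 7 to 9 UMIs, 32 and 76 Olfm4-low cells. Goblet transcripts had medians of 47952 CPM inside and 57350 outside in WT, and 53769 and 49551 in NFKO. At the Olfm4 limit, 18 WT and 12 NFKO members had 200 to under 300 CPM, and 13 and 11 dividing cells 300 to under 400. Of the rule genes, Ube2c was at 354 CPM in WT and 533 in NFKO and Mki67 at 308 and 269.

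Members made up 7.57% (6.67 to 8.56) of kept WT barcodes and 8.49% (7.77 to 9.25) of NFKO barcodes, a ratio of 1.12 (0.957 to 1.31). Dividing Olfm4-high cells made up 6.2% and 2.10%, a ratio of 0.338 (0.266 to 0.427). Members were thus 55.0% of all dividing cells in WT and 80.2% in NFKO, while all dividing cells together were 13.8% and 10.6%. The member share depended on how division was called. It was 1.35-fold higher in NFKO (1.15 to 1.59) when the 5 genes had to reach 500 CPM, and the ratio was 0.953 (0.827 to 1.10) with Olfm4 allowed up to 1000 CPM. After each barcode was thinned to 5000 UMIs and 3 UMIs were required, the shares were 7.16% and 8.67%.

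Most members carried goblet transcripts, at levels between those of Olfm4-high dividing cells and of mature goblet cells. The 8 goblet genes found in the files (Muc2, Tff3, Fcgbp, Agr2, Clca1, Zg16, Spink4 and Ccn3) summed to a median of 38211 CPM per member in WT, with a lowest of 86.9 and a highest of 168289, and to 44151 in NFKO, from 466 to 318086. Olfm4-high dividing cells had medians of 5264 and 13697. The reference for a full goblet level was the median of the 100 non-dividing cells of both libraries together that were highest in these genes. It was 549233 CPM. The highest kept cell had 431653 CPM in WT and 686892 in NFKO, so no WT cell reached the reference itself. At least 5% of it was reached by 66.2% (59.8 to 72.2) of WT and 72.0% (67.7 to 76.0) of NFKO members, at least 10% by 29.5% and 34.5%, and at least 25% by 0.844% and 1.88%. Of 100 reference tuft cells, which should lack these transcripts, 0 reached 5%, which by the floor of 3 counts allows a share of up to 3%. Muc2 was seen in 94.9% of WT and 98.7% of NFKO members, with medians of 1265 and 1185 CPM. Olfm4-high dividing cells had it in 83.5% and 100%, with medians of 183 and 417 CPM. Its median level was thus higher in members in both libraries, whereas its detection was higher in members only in WT.

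**Figure D1:**
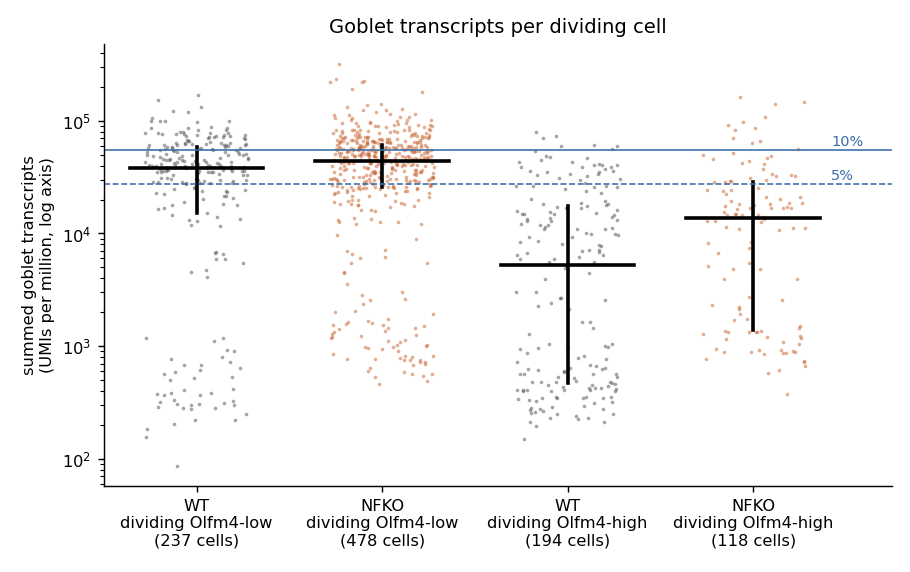
Summed goblet transcripts of each dividing cell (log axis, CPM) in WT (gray) and NFKO (orange), for Olfm4-low and Olfm4-high cells; horizontal bars are medians, vertical bars run from the first to the third quartile, and blue lines mark 5% and 10% of the goblet reference. Olfm4-low cells fall into a large upper group around medians of 38211 and 44151 and a small lower one, and both Olfm4-high sets have lower medians of 5264 and 13697.

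By 5% of the goblet reference, the label of a secretory lineage held for most members and not for all. A stricter bar, 10% of the reference of each lineage, was also set for goblet, Paneth, EEC, tuft and enterocyte transcripts. By it 150 of 237 WT (63.3%) and 286 of 478 NFKO members (59.8%) passed for none of the lineages. In 46 WT members (19.4%) and 65 NFKO members (13.6%) goblet transcripts stayed under 1% of the reference, although these cells held a median of 41660 and 36624 UMIs, beside 34719 and 35212 in members at 5% or more. Of them, 42 and 48 also passed none of the Paneth, EEC, tuft and enterocyte gates, each set at 10% of that lineage's reference. Pooled Atoh1 was 1.85 CPM in the WT cells and 5.69 in the NFKO cells under 1%, against 111 and 194 CPM in members at 5% or more. Spdef, a goblet and Paneth maturation factor, was at 0.464 and 6.05 CPM against 140 and 226. The receptor Notch1 ran the other way, at 13.0 and 11.0 CPM against 4.96 and 1.95, as did its target Hes1, at 82.5 and 87.9 against 48.3 and 36.5. Lgr5 was at 0 CPM in the WT cells under 1% and at 2.14 in the NFKO cells.

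Genes known from absorptive enterocytes and from endocrine cells were among those most in excess in these goblet-poor members. The 20 genes with the greatest excess over goblet-carrying members in both libraries were listed after the split was seen, and are a description. Among them the fatty acid binding protein Fabp1 was at 135 CPM in WT and 673 in NFKO, against 11.9 and 44.2 CPM in members at 5% or more. Anpep, an aminopeptidase of the brush border, was at 122 and 143 against 15.0 and 21.8. Sucrase-isomaltase (Sis) was at 96.0 and 194 against 21.2 and 36.0, and Mttp, which loads lipid onto chylomicrons, at 161 and 172 against 44.0 and 26.9. The endocrine genes Gcg, which encodes proglucagon (1383 and 3415 CPM against 254 and 77.9), Chgb (1123 and 1172 against 317 and 325) and Neurod1 were also on the list. Of the Gcg UMIs of all members, 5 cells held 97.2% in WT and 93.9% in NFKO. Still, 0 of 46 WT and 6 of 65 NFKO cells passed the enterocyte gate, and 3 and 4 the EEC gate.

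Other lineages were rare among the members. The Paneth gate was passed by 13 WT (5.49%, 2.95 to 9.20) and 6 NFKO members (1.26%, 0.462 to 2.71), the EEC gate by 6 and 8, the tuft gate by 1 and 12, and the enterocyte gate by 0 and 6. In both libraries the median member held 0 CPM of the tuft, immune, stromal and pancreatic acinar lists. Prss1, Cpa1 and Cpb1 of the acinar list and Col1a2, Col3a1 and Dcn of the stromal list had 0 UMIs in all members. Epithelial genes (Epcam, Cdh1, Krt8, Krt18, Krt19, Vil1 and Cldn7) had a median sum of 7958 CPM in WT and 8497 in NFKO.

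Members held a smaller share of replication transcripts, relative to mitotic ones, than Olfm4-high dividing cells. The 5 genes of the rule act late in the cycle and so favor mitotic cells in both sets, and members were shallower than Olfm4-high cells, with medians of 37749 and 35520 UMIs against 52732 and 52150. The part of either in the values below was not tested. For each cell the transcripts of 43 DNA replication genes were taken as a percentage of those of replication and mitosis together, without the rule genes. The median was 26.0% in WT and 23.6% in NFKO members, against 47.4% and 44.5% in Olfm4-high dividing cells. Replication made up under 33.3% in 64.1% of WT and 69.5% of NFKO members, against 26.8% and 28.0% of Olfm4-high dividing cells. It made up over 66.7% in 9.28% and 7.11% of members. The median member carried goblet transcripts throughout this range. In WT the median goblet level was 33432 CPM in members with over 66.7%, 39556 in between and 38490 in members under 33.3%, and in NFKO it was 43557, 42406 and 44786. The first quartile in WT was 2163, 12421 and 19783 CPM, the first of these from 22 cells. In NFKO it was 26504, 23737 and 26194 CPM.

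**Figure D2:**
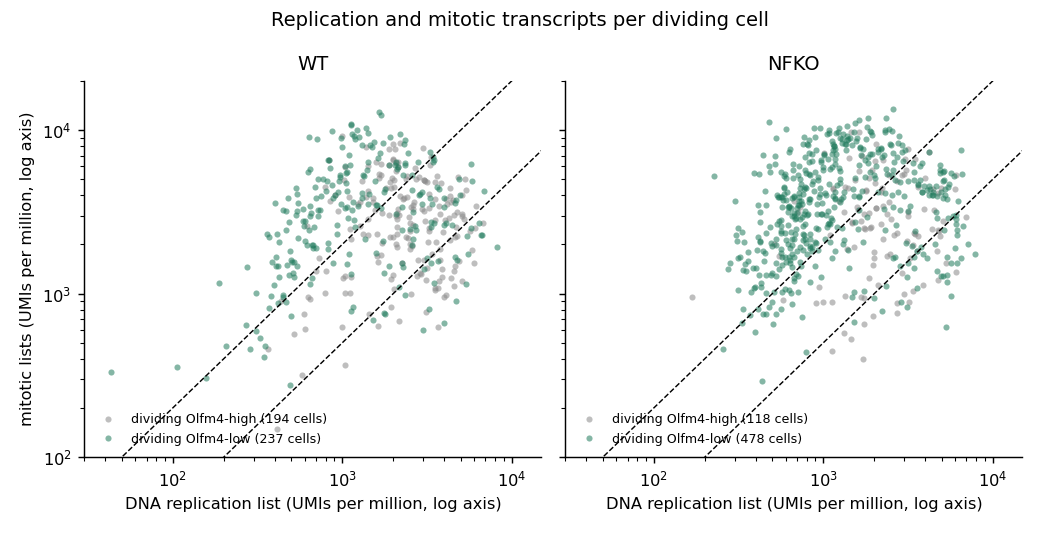
Transcripts of 43 DNA replication genes against those of 59 mitotic genes in each dividing cell (log axes, CPM), Olfm4-low in green and Olfm4-high in gray; the dashed lines mark where replication makes up 33.3% (upper) and 66.7% (lower) of both. In WT 64.1% and in NFKO 69.5% of the Olfm4-low cells lie above the upper line.

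Against Olfm4-high dividing cells of the same library, replication genes were lower in members while few mitotic genes differed. The sets were split on Olfm4 in these same cells, so all values of this comparison are descriptions. A gene was counted as higher or lower when it differed at least 1.5-fold in the same direction in both libraries with the intervals clear of 1. Of 42 replication genes with at least 100 UMIs, 21 were lower and 0 higher, where 4.60% of 9461 genes were lower and 7.16% higher. The median log2 ratio of the 42 genes was -0.67 in WT and -0.58 in NFKO, against 0.01 and 0.09 for all genes. The licensing factor Cdt1 was at 12.9 CPM in WT members and 40.1 in WT Olfm4-high cells, a ratio of 0.321 (0.265 to 0.386), and at 11.8 and 34.8 CPM in NFKO, a ratio of 0.338 (0.28 to 0.408). The helicase genes Mcm2 (ratios 0.475 and 0.473), Mcm3 (0.451 and 0.437) and Mcm6 (0.481 and 0.501), the DNA methylation maintenance genes Dnmt1 and Uhrf1, and the sliding clamp Pcna (0.634 and 0.666) were likewise lower. Tyms and Rrm2, which supply deoxynucleotides, were near 1 in WT (0.970 and 0.996) and above it in NFKO (1.12 and 1.36).

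Of 59 mitotic genes 2 were higher and 0 lower, with a median log2 ratio of 0.11 in WT and 0.39 in NFKO. Cdc20, which activates the anaphase-promoting complex, was at 111 CPM in WT members against 61.2 and at 164 in NFKO members against 82.8, ratios of 1.82 and 1.98. Hmmr, a spindle protein, had ratios of 1.55 and 1.80. Among cyclins and their switches, Ccnb2 (1.52 and 1.68), Cdc25b (1.77 and 1.66) and Cdc25c (1.62 and 1.52) were higher, whereas the G1 kinase Cdk6 was at 18.9 CPM against 77.1 in WT and 17.1 against 86.1 in NFKO. The growth factor target Myc was at 15.0 against 55.4 CPM in WT and 10.5 against 34.5 in NFKO. Genes of the nucleolus and ribosome assembly were lower in 7 of 12, including Ncl (0.543 and 0.529) and Npm1 (0.587 and 0.607). Depth enters the rule of 10 UMIs. With at least 20 UMIs required of both sets, 10 replication genes were lower and 4 mitotic genes higher. Both sets were also held to at least 5% of the goblet reference, which left 157 and 344 members against 34 and 31 cells. There 8 of 38 replication genes were lower, 1 was higher, and 21 of 54 mitotic genes were higher. The shares over all genes given above are those of the full sets, so the counts in these subsets have no background of their own.

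Of 9 inhibitors and pocket proteins compared, which act as brakes of the cycle, Cdkn2b, Cdkn2d and Rb1 were higher in members and Cdkn1c was lower. Cdkn2b, which encodes the CDK4 and CDK6 inhibitor p15, was at 61.5 CPM in WT members and 8.73 in WT Olfm4-high cells, a ratio of 7.05 (5.76 to 8.69), and at 81.5 and 19.5 CPM in NFKO, a ratio of 4.18 (3.50 to 5.04). In single members it ran from 0 to 308 CPM with a median of 40.0 in WT, and from 0 to 410 with a median of 54.3 in NFKO, while the median Olfm4-high cell had 0 in either library. After thinning to 5000 UMIs, a Cdkn2b UMI was seen in 25.4% of WT and 29.6% of NFKO members, 2.59% and 14.4% of Olfm4-high cells, and 2 of 23 and 0 of 57 tuft reference cells. Without thinning the members' shares were 68.8% and 77.8%. Cdkn2d, the related inhibitor p19, was at 23.2 against 9.98 CPM in WT and 42.1 against 17.1 in NFKO. Rb1, the retinoblastoma protein that both inhibitors keep active, had ratios of 1.60 and 1.81, and Cdkn1c (p57) ratios of 0.571 and 0.497.

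**Figure D3:**
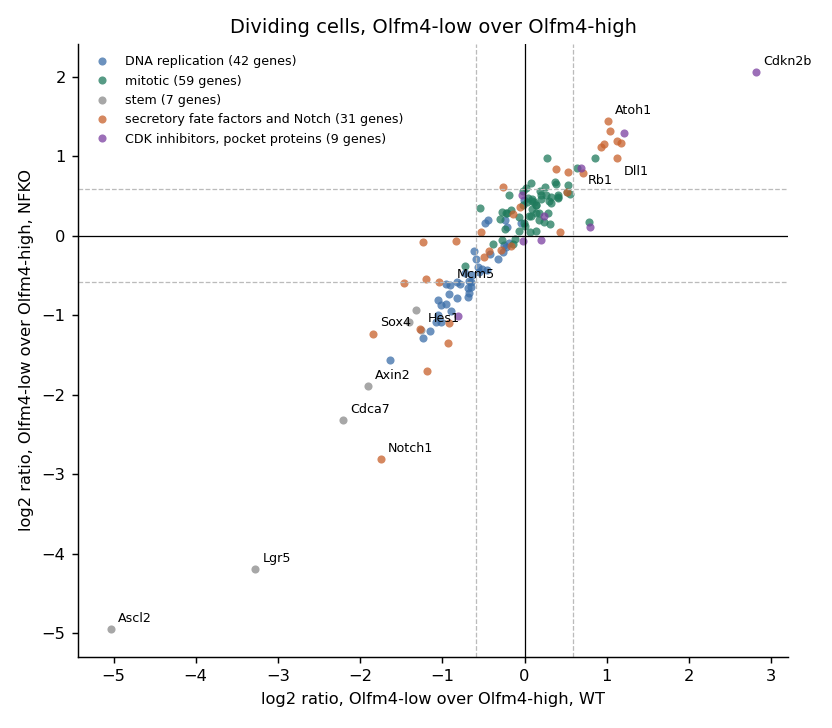
Log2 ratio of dividing Olfm4-low over dividing Olfm4-high cells in WT (horizontal) and in NFKO (vertical), 1 point per gene of the lists named in the legend; dashed lines mark 1.5-fold. Replication genes lie mostly below and left of 0, mitotic genes near or above it, stem genes far below, and Cdkn2b, Atoh1 and Dll1 above 1.5-fold on both axes.

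Goblet fate factors were higher in members than in Olfm4-high dividing cells, while some endocrine factors were lower. Of 22 factors compared, 6 were higher and 3 lower. Atoh1 (ENSMUSG00000073043, chromosome 6, 64729125 to 64731245, plus strand) was at 74.2 CPM in WT members against 36.7, and at 155 in NFKO members against 56.9, ratios of 2.02 and 2.72. Spdef was 2.26-fold higher in each library, and Gfi1, which represses endocrine fate downstream of Atoh1, 1.90-fold and 2.17-fold. The secretory pathway factors Creb3l1 (2.19 and 2.29), Creb3l4 (1.96 and 2.23) and Xbp1 (1.64 and 1.73) were also higher. The 3 lower factors were Sox4 (0.278 and 0.426), Neurog3 (0.439 and 0.309) and Nkx2-2 (0.363 and 0.660), the last 2 being endocrine factors. Members carried 5.55 CPM of Neurog3, the gene whose promoter drove Cre, in WT and 7.49 in NFKO, and 3 cells in each library held over 50% of those UMIs.

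In the Notch pathway the ligands Dll1 and Dll4 were higher in members, and the receptor Notch1 with Hes1, Nrarp and Dtx4 was lower. Dll1 was at 53.8 CPM in WT members against 24.8 in Olfm4-high dividing cells and at 82.5 in NFKO members against 42.0. Dll4 was at 34.2 against 16.7 CPM and 41.3 against 16.5. Notch1 was at 7.58 against 25.5 CPM in WT, a ratio of 0.298 (0.232 to 0.378), and at 4.08 against 28.7 in NFKO, a ratio of 0.142 (0.108 to 0.186). Thinned to 5000 UMIs, members held a Notch1 UMI in 3.39% of WT and 1.91% of NFKO cells, beside 14.0% and 9.32% of Olfm4-high cells, 3 of 23 and 4 of 57 tuft reference cells, and 0.122% and 0.364% of non-dividing goblet cells. Without thinning the members' shares were 21.9% and 11.7%. The targets Hes1 and Nrarp had ratios of 0.414 and 0.444 and of 0.525 and 0.391, and Dtx4 of 0.527 and 0.469. In the whole list 2 of 9 genes compared were higher and 4 lower.

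Stem cell genes were lower in members in 7 of 7 compared, in cells that the rule had split on Olfm4, itself a stem gene. Lgr5 was at 3.70 CPM in WT members against 35.8, and at 2.20 in NFKO members against 40.2, ratios of 0.103 and 0.0547. After thinning to 5000 UMIs, an Lgr5 UMI was seen in 1.27% of WT and 1.91% of NFKO members, 18.7% and 11.9% of Olfm4-high cells, and 4 of 23 and 10 of 57 tuft reference cells. In non-dividing goblet cells the thinned shares were 1.70% and 0.437%, and without thinning those of the members were 8.44% and 6.49%. The Wnt targets Axin2 (0.267 and 0.269) and Ascl2 (0.0305 and 0.0324) were lower too, and so was Cdca7 (0.217 and 0.201).

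Over all genes with at least 50 CPM in 1 set and 100 UMIs, 255 of 2575 were higher in members (9.90%) and 114 lower (4.43%). Those ranked highest by their smaller ratio included Cdkn2b and the goblet protein disulfide isomerase Agr2, with Clec2h (12.9 and 3.51), the sialyltransferase St3gal4 (8.62 and 3.35), the annexin Anxa13 (4.15 and 3.31), the fucosyltransferase Fut2 (3.55 and 2.88), the serine protease Tpsg1 (3.22 and 2.74) and Bcl2l15 (3.66 and 2.73). Fabp6 and the hormone gene Ghrl ranked among them but rested on few cells, since 2 WT members and 1 NFKO member held over 50% of the Fabp6 UMIs, and 1 and 2 those of Ghrl. The 10 ranked lowest were Jaml, Cdca7, Cdk6, Ifitm3, Axin2, Cnn3, the potassium channel Kcnq1, Mptx2, Clca3b and the water channel Aqp4, with ratios from 0.0738 to 0.396. Of 7 goblet genes 5 were higher, among them Tff3 (3.72 and 2.69), Fcgbp (4.39 and 2.56) and Clca1 (11.6 and 2.56).

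Members were set against cells of the same libraries that were Olfm4-low and not dividing (at most 2 UMIs of the 5 genes). The rule itself made this contrast, so the counts are printed without a reading. Of 2662 genes 815 were higher in members (30.6%). Without the minimum of 50 CPM, 18.0% of 11459 genes were higher and 17.2% lower, and 40 of 41 replication and 56 of 57 mitotic genes were higher. Outside the cell cycle lists the highest were the PCNA partner Pclaf (74.9-fold in WT and 93.6-fold in NFKO), the linker histone Hist1h1b, Hist1h2ap, Hist1h2ae, the tubulin Tuba1b, Gm43305, the mucosal scavenger Dmbt1 (7.11 and 9.74), the microtubule regulator Stmn1, the urea cycle enzyme Cps1 (6.62 and 6.81) and Exosc8. Histone and tubulin genes have near-identical copies, so that the assignment of reads among them is uncertain.

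Compared with non-dividing goblet cells alone (878 in WT and 1807 in NFKO, past 10% of the reference), members differed less in the fate factors than in the goblet products. This gate uses the goblet genes, so their own ratios are partly fixed by it. Of 9757 genes, 24.7% were higher and 5.52% lower in members. All 7 goblet genes compared were lower, Muc2 at 1743 CPM in WT members against 7050 and 1821 in NFKO members against 12725, and Zg16, a lectin of mature goblet cells, at ratios of 0.129 and 0.0662. Atoh1 was at 74.2 against 135 CPM in WT and at 155 against 226 in NFKO, Spdef at 92.8 against 196 and 180 against 245, and Creb3l1 at 122 against 194 and 210 against 190. The members here include those with few goblet transcripts. Members at 5% or more of the goblet reference alone had Atoh1 at 111 CPM in WT and 194 in NFKO, and Spdef at 140 and 226. Foxa3 was the one factor of 20 that was counted as lower, and Sox4, Pax6 and Rfx3 were counted as higher.

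The inhibitors differed in both directions from non-dividing goblet cells. Cdkn1a (p21), a brake on CDK2, was at 106 CPM in WT members against 220 and at 108 in NFKO members against 231. Cdkn2b was at 61.5 against 82.4 and 81.5 against 118, under 1.5-fold in either library. Cdkn2d was higher in members, at 23.2 against 9.92 CPM and 42.1 against 11.2, and so were Cdkn1b (p27, ratios 1.65 and 1.63), Cdkn2c (p18, 8.10 and 8.03) and Rbl1 (3.88 and 3.20). Dll1 was on either side of 1 (ratios 0.693 and 1.39), while Hes1 (1.76 and 1.63), Nrarp (4.61 and 8.51) and Jag1 (2.08 and 2.10) were higher in members.

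**Figure D4:**
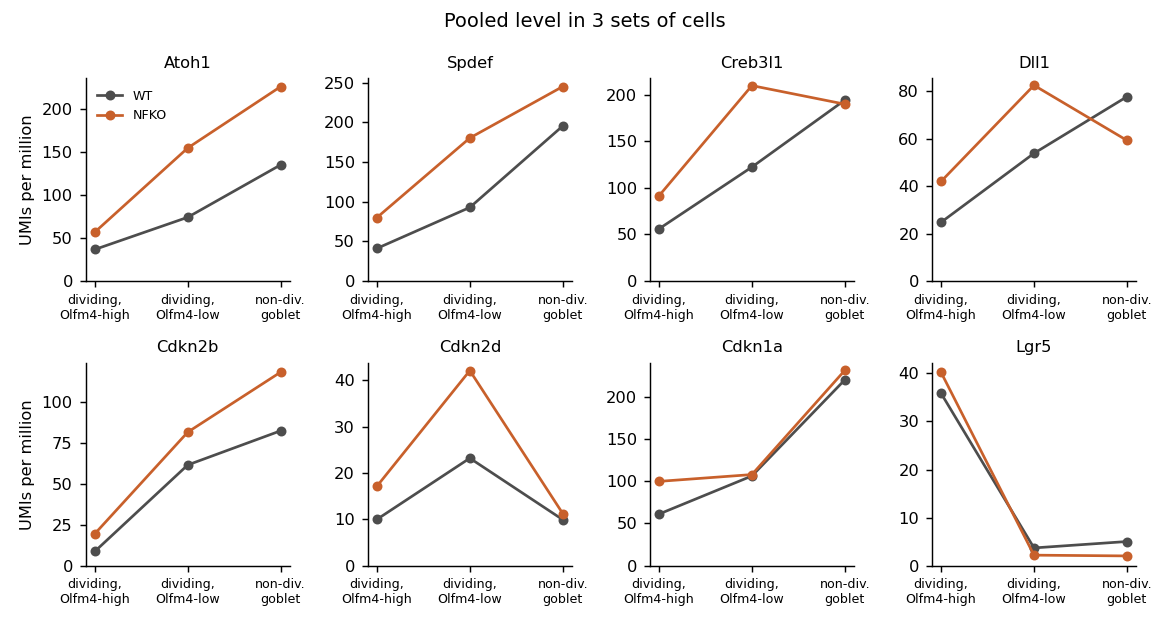
Pooled level (CPM) of 8 genes in Olfm4-high dividing cells, Olfm4-low dividing cells and non-dividing goblet cells, for WT (gray) and NFKO (orange), without error bars since each point is 1 library. Atoh1, Spdef and Cdkn2b step up from left to right, Cdkn2d peaks in the middle set at 23.2 and 42.1, and Lgr5 falls to 3.70 and 2.20 in it. The middle set includes members with few goblet transcripts.

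NFKO members were then set beside WT members. Over 10066 genes with at least 100 UMIs the median log2 ratio of NFKO over WT was 0.14, and the gene ratios are to be read against it. In these, 9.53% were at least 1.5-fold higher in NFKO and 2.91% lower. With at least 50 CPM, 228 of 2854 genes were higher (7.99%) and 71 lower (2.49%). With median-of-ratios size factors, which remove the shift, the split was 99 higher and 109 lower.

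Goblet fate factors were higher in NFKO members. Atoh1 was at 74.2 CPM in WT and 155 in NFKO, a ratio of 2.09 (1.93 to 2.25), with median values per cell of 66.9 and 149 CPM and highest values of 445 and 1189. The ratio was 1.89 with median-of-ratios size factors and 1.75 (1.52 to 2.01) in male-typed members, and it stayed past 1.5-fold under all 10 alternatives (1.73 to 2.29). Foxa3, a forkhead factor of goblet cells, was at 68.8 and 144 CPM, a ratio of 2.09 (1.93 to 2.26), with 1.57 in male-typed members. Spdef was at 92.8 and 180 CPM, a ratio of 1.94, which was 1.33 (1.15 to 1.52) in male-typed members. Creb3l1 (1.71), Hes6 (1.64), Creb3l4 (1.63) and Gfi1 (1.59) were past 1.5-fold in all members, but at 1.29 to 1.47 in male-typed members. They were also not counted as higher with equal cell weights, or in members at 5% or more of the goblet reference. With median-of-ratios size factors Hes6, Creb3l4 and Gfi1 were not counted as higher either. After thinning to 5000 UMIs, an Atoh1 UMI was seen in 35.2% (29.1 to 41.6) of WT and 50% (45.4 to 54.6) of NFKO members, and in 0 of 23 WT and 2 of 57 NFKO tuft reference cells. Without thinning the shares were 76.4% and 84.7%.

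In non-dividing goblet cells Atoh1 was at 135 CPM in WT and 226 in NFKO and Spdef at 196 and 245, whereas Creb3l1 was at 194 and 190 and Dll1 at 77.7 and 59.3. Of the 22 fate factors compared in members, 12 were higher in NFKO and 0 lower, and 8 with median-of-ratios size factors. Of 17 compared in male-typed members 3 were higher and 2 lower. Over all genes with at least 50 CPM, a minimum not asked of the factors, 6.73% were higher and 2.62% lower in male-typed members. With median-of-ratios size factors these shares were 3.51% and 3.87%. The endocrine factor Insm1 (10.5 and 24.2 CPM, ratio 2.31) was higher under all 10 alternatives, whereas Pax6, Nkx2-2 and Isl1 were higher in all members and lower in male-typed ones.

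Goblet products differed less evenly. Clca1 was at 229 and 465 CPM, a ratio of 2.03 (1.94 to 2.12) that held under all 10 alternatives. Zg16 (3004 and 5163 CPM), Agr2 (8398 and 14358) and Fcgbp (2349 and 3599) were 1.72-fold, 1.71-fold and 1.53-fold higher, the first at 1.14 and the last at 1.17 in male-typed members. Muc2 (1743 and 1821 CPM, ratio 1.04) and Spink4 (9581 and 8904 CPM, ratio 0.929) were near 1. The tally was 4 of 7 higher and 0 lower. The share of members past the 10% goblet gate was 1.17-fold that of WT (0.879 to 1.57). Olfm4-high dividing cells also held more goblet transcripts in NFKO. A Clca1 UMI was seen in 24.7% of them in WT and 69.5% in NFKO. Their medians were 35.8 and 314 CPM for Zg16, 183 and 417 for Muc2, and 1312 and 2913 for Spink4. The higher goblet values in NFKO were thus not particular to the members. Every NFKO Olfm4-high dividing cell held at least 90.6 CPM of Zg16, where the lowest in WT was 0. Among non-dividing Olfm4-low cells, the lowest summed goblet level was 400 CPM in NFKO and 0 in WT. The source of these low values was not tested.

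In the Notch pathway Dll1 was at 53.8 CPM in WT and 82.5 in NFKO, a ratio of 1.53 (1.4 to 1.69), which fell under 1.5 in 6 of 10 alternatives and was 1.53 in male-typed members. Notch1 was at 7.58 and 4.08 CPM, a ratio of 0.539 (0.392 to 0.741), but 0.961 (0.526 to 1.65) in male-typed members, where it rested on 85 and 16 UMIs. Of 9 genes 1 was higher and 2 lower, the other one being Dtx4.

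**Figure D5:**
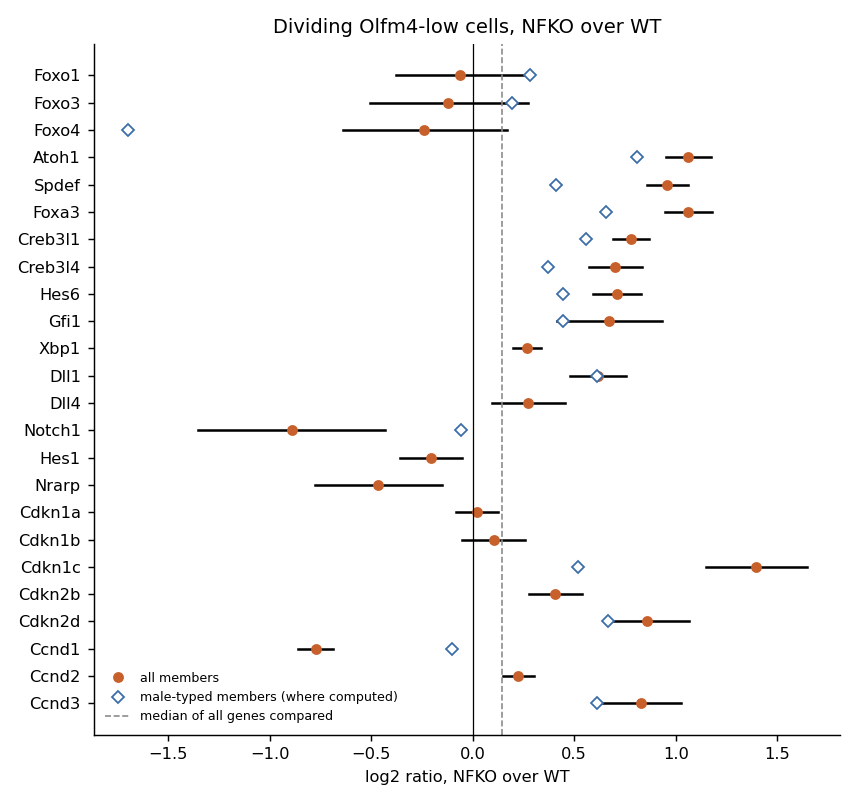
Log2 ratio of NFKO over WT in dividing Olfm4-low cells (orange points) with 95% counting intervals (black), the ratio in male-typed members where computed (open diamonds) and the median of all genes compared (dashed line, 0.14). Atoh1, Foxa3 and Spdef lie near 1 on the log2 scale, Foxo1 spans 0, and the diamonds of Spdef, Notch1, Cdkn1c and Ccnd1 lie closer to 0 than the pooled values.

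Few replication genes differed between the libraries. Over all genes with at least 100 UMIs, 9.53% were higher in NFKO and 2.91% lower. Mitotic genes were counted as higher about as often as that, and cyclins and their switches more often. Replication genes had a median log2 ratio of 0.14, the same as all genes, with 1 of 42 higher (Cdc45, 1.52) and 0 lower. Mitotic genes had a median of 0.29, with 6 of 59 higher and 0 lower, among them the centromeric histone Cenpa (128 and 205 CPM, ratio 1.60) and the checkpoint gene Mad2l1 (36.7 and 58.3 CPM, ratio 1.59). Of the cyclins and their switches 6 of 19 were higher and 1 lower. Ccnd3 was at 25.7 and 45.7 CPM, a ratio of 1.77 (1.55 to 2.03) that held under all 10 alternatives, with Cks1b (1.64) and Cdk4 (1.56) also higher. Ccnb1 (1.51) and Ccnb2 (1.52) were past 1.5-fold in 2 and 3 of 10 alternatives. Ccnd1 was at 191 and 112 CPM, a ratio of 0.585 (0.551 to 0.622), but 0.930 in male-typed members.

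Of the inhibitors, Cdkn2d was at 23.2 and 42.1 CPM, a ratio of 1.81 (1.58 to 2.09), with 1.59 in male-typed members, and Cdkn1c at 14.7 and 38.6 CPM, a ratio of 2.63, with 1.43 in male-typed members. Cdkn1a and Cdkn1b, which FoxO factors are known to activate, were at ratios of 1.02 and 1.07. In all, 0 of 16 FoxO target genes compared were higher and 1 lower, Bcl2l11, at 5.02 and 2.62 CPM (0.521, 0.349 to 0.776), with 0.757 in male-typed members. Among these targets Sod2 was at 122 and 134 CPM, Txnip at 127 and 117, Cat at 29.3 and 36.9 and Cited2 at 99 and 72.1.

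Stress transcripts also separated the libraries. Hspa1a was at 269 CPM in WT and 19 in NFKO, a ratio of 0.0705, and Hspa1b at 194 and 14.5, a ratio of 0.0744. These paralogs are nearly identical, so their reads cannot be assigned with certainty. The chaperone genes Dnajb1 (0.526), Hsph1 (0.442) and Hsp90aa1 (0.623) were lower in NFKO under all 10 alternatives. Of the 14 genes of the heat shock and immediate early list, 5 were lower and 3 higher. The 3 higher ones, the immediate early genes Fos (1.62), Fosb (1.90) and Ier2 (1.76), were at 0.995, 1.41 and 1.08 in male-typed members and at 1.33, 1.47 and 1.45 with each member given the same weight. The part of these genes in the other differences was not tested.

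Several of the genes with the largest ratios rested on few cells. Ranked highest in NFKO were Gm10260 (0.353 and 131 CPM), Mptx1, the hormone genes Sst (54.6-fold), Nts (16.3-fold) and Gip (8.94-fold), Reg1 (5.49), Ocel1 (18.1 and 72.0 CPM, 3.98), the calcium-binding gene S100g (3.95), Fabp1 (3.85) and the retinol-binding gene Rbp2 (3.47). For Sst, 5 cells held 88.6% of the NFKO members' UMIs, and the median NFKO member had 29.1 CPM beside 30.6 in non-dividing goblet cells. For Gip the median member had 116 CPM beside 200.4 in non-dividing goblet cells and 166 in tuft reference cells. Ocel1, spread over the most cells of these, needed 40 WT and 111 NFKO members for 50% of its UMIs. Each of these genes was also higher in NFKO in Olfm4-high dividing cells and in non-dividing Olfm4-low cells. In these 2 sets Gm10260 was at 0.393 and 200 CPM and at 0.289 and 59.0. Ocel1 was at 8.96 and 42.6 CPM and at 17.5 and 59.6.

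Ranked lowest were Hspa1a and Hspa1b with Paneth transcripts, namely Gm14851, Mptx2, the defensins Defa36, Defa21, Defa22, Defa30 and Defa26, and lysozyme (Lyz1), at ratios from 0.0200 to 0.118. Between 2 and 4 WT members held over 50% of the UMIs of each Paneth gene, and 13 WT and 6 NFKO members passed the Paneth gate. Without members past the gates of other lineages, each of these 8 genes was higher in NFKO. Lyz1 then had a log2 ratio of 1.33 and Defa30 of 0.93. The Paneth gate uses Lyz1, Defa30 and other Paneth genes, so these values are partly fixed by the selection. The defensins form a family with near-identical copies, and their assignment is uncertain.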

How the data were processed

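Tomato+ cells of a WT and an NFKO pool were profiled by 10x Genomics 3′ scRNA-Seq. The deposited matrices hold UMI counts per gene and barcode, made by the authors with Cell Ranger 5.0.1 on mm10, per the submitters' processing notes, and not normalized. The files held 32285 genes, and where 38 symbols were held by more than 1 entry the first was used. Barcodes were kept at 500 genes, 1000 UMIs and at most 25% mitochondrial UMIs, and CPM values were UMIs summed over cells, divided by the summed total.

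Each genotype was 1 library, so no p-value was computed. Ratios carry exact conditional binomial intervals and shares exact Clopper-Pearson intervals at 95%, which cover counting error only. The floor of 3 counts was 0.264 CPM in WT members and 0.157 in NFKO members. A gene was counted as higher or lower past 1.5-fold with an interval clear of 1. Reference cells of a lineage were the 100 non-dividing barcodes of both libraries together that were highest in its marker list. The listed goblet marker Nov was not found among the gene names.

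Named genes were the 10 with the largest ratios in each direction at 50 CPM, 100 UMIs and a UMI in 20% of cells, and list members used as examples. The members and lists were chosen with earlier results of these data known. Alternatives were other division and Olfm4 limits, thinning to 5000 UMIs, equal cell weights, median-of-ratios size factors, removal of the highest doublet scores (Scrublet in scanpy 1.11.5), male-typed cells and, added after the data were seen, subsets by goblet content, other lineages and depth. Scrublet removed 8 WT and 32 NFKO members. The scripts (Python 3.11.15, scipy 1.17.1) were tested on simulated data. Gene positions came from GENCODE M21 for 72 of 72 IDs, and promoters from RefSeq on GRCm38.p6.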

Additional observations from a re-analysis of the deposited data

Results flagged for a closer look

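The lipoprotein gene Apoa1 differed in direction between the libraries. It was 3.61-fold higher in Olfm4-low than in Olfm4-high dividing cells of WT and stood at 0.657 of the Olfm4-high level in NFKO. This difference between the libraries was not tested.

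Barcodes outside the comparisons also carried the dividing genes. Mitochondrial UMIs over 25% kept out 8 WT and 4 NFKO barcodes that met the rest of the rule. A further 210 WT and 423 NFKO Olfm4-low barcodes held 3 to 9 UMIs of the 5 dividing genes, and their goblet transcripts had medians of 56194 and 65331 CPM.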

How the results depend on the processing

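No paired analysis was possible because each genotype was 1 library. The share ratio of NFKO over WT was 1.35 with 500 CPM over the 5 genes and 0.953 with Olfm4 under 1000 CPM. In male-typed cells it was 1.36 (0.959 to 1.90). Genes higher in NFKO numbered 117 with equal cell weights, 99 with median-of-ratios size factors (109 lower), 442 at 20 CPM and 50 UMIs (122 lower), 98 in members at 5% or more of the goblet reference and 125 without members of 100000 UMIs and over. The goblet share ratio was 2.23 (0.462 to 21.2) with a 25% gate, which only 2 WT and 9 NFKO members passed. Against Olfm4-high cells, 436 genes were higher and 235 lower at 20 CPM and 50 UMIs, and 75 were lower with both sets at 5% or more of the goblet reference. These are 14 values of the main results, and 53 others stayed within 1.5 times a count or within the interval of a ratio.

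Some log2 ratios of NFKO over WT changed sign. In male-typed cells they were -0.85 for Gip, -1.20 for Pax6, -0.73 for Nkx2-2, -0.69 for Isl1 and -0.0073 for Fos. At 5% or more of the goblet reference they were 1.35 for Gm14851, 1.19 for Mptx2, 1.53 for Defa21 and 0.86 for Defa30. Without members past other lineage gates they were 1.41 for Gm14851, 1.48 for Mptx2, 0.88 for Defa36, 1.66 for Defa21, 1.4 for Defa22, 0.93 for Defa30, 0.89 for Defa26, 1.33 for Lyz1, 0.19 for Defa24, 1.70 for Ang4 and 0.45 for Itln1. The Paneth gate has Lyz1, Defa30, Defa24, Ang4 and Itln1 among its genes, so the values without members past other gates are partly fixed by it. The cause was not tested for any of these sign changes. Single cells at the median depth held few UMIs of factors such as Atoh1, so shares of cells with a UMI are limited by depth, and male-typed NFKO values rest on 43 cells.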
